A study of Danio rerio with 8 samples.

Results

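Gap junction genes were followed in hearts of zebrafish (Danio rerio, TU strain) at 21 days post fertilisation (dpf). The set held 7 connexin gene IDs of the alpha class out of 31953 IDs counted: gja13.1, gja12.1, GJA1, GJA3, gja4 and 2 IDs that both carry the symbol GJA5. They were picked by name, with results of the comparison between zfpm1 mutant and control hearts already known. Their mutant-over-control values are therefore given as a description, and no call among them counts as evidence about the set. The GJA5 IDs stand for gja5a and gja5b, but the gene table does not say which is which. A separate ID is named gja1a, so GJA1 was read as gja1b.

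RNA was sequenced in 3 heart libraries from zfpm1 mutants and 3 from controls. The aim was to look for genes downstream of zfpm1, a cofactor of GATA transcription factors, in the maturation of the heart chambers. The labels name neither the mutant allele and its zygosity nor the origin of the control fish. They do not say whether a library came from 1 heart or a pool, and p-values therefore measure no more than the spread between libraries, which may be technical. Each heart library is called a heart below. For each genotype 1 further library is labelled as whole embryo, taken 36 hours post fertilisation.

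Connexins are membrane proteins that assemble into channels joining the cytoplasm of neighbouring cells. In heart muscle these gap junctions pass the electrical impulse from cell to cell, and different connexins serve atria, ventricles, conduction tissue and vessel walls. In mammals GJA1 encodes the main connexin of ventricular muscle, GJA5 a connexin of atria, conduction tissue and arterial endothelium, and GJA4 a connexin of vessel endothelium. In zebrafish gja3 is required for impulse conduction in the embryonic ventricle and is known in mammals for its role in the lens, and gja5b and gja4 act in the pigment stripes of the skin. The genes gja12.1 and gja13.1 are listed by name only, with no role given here.

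The 6 heart files held between 7614329 and 9909966 counts in genes, and 60.5% to 64.9% of all their counted lines fell outside genes or could not be placed. The heart muscle light chain gene MYL7 stood at 5199, 8540 and 7807 CPM (the count scaled to library size with TMM factors) in mutant replicates 1 to 3, against 12834, 12399 and 10810 CPM in control replicates 1 to 3, so every library held abundant heart muscle RNA. ZFPM1 itself had 558, 471 and 956 counts in mutant hearts, against 419, 344 and 423 in control hearts (log2 fold change 0.50, SE 0.23, edgeR adjusted p = 0.241). These counts do not check the genotype labels, since a mutant allele may still be transcribed. The file labelled control embryo had the same total over all lines as mutant heart replicate 1 (19276348), and the file labelled mutant embryo the same as control heart replicate 1 (22649056). Connexin counts followed this match. In mutant heart replicate 1 gja13.1 had 502 counts against 989 in the file labelled control embryo, a ratio of 0.508 where the median over 14361 genes was 0.503. In control heart replicate 1 gja13.1 had no count, as in the file labelled mutant embryo. Neither embryo-labelled file entered a comparison, and results were recomputed without both hearts numbered 1.

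Of the 7 connexin IDs, 3 rose in mutant hearts and none fell, by edgeR's quasi-likelihood test at a Benjamini-Hochberg adjusted p under 0.05. At an unadjusted p under 0.05, and with DESeq2, 3 were likewise higher and 0 lower. The 3 were gja13.1, gja12.1 and GJA1. Over all 16707 genes tested, edgeR called 9.43%, of all tested 7.02% as higher and 2.42% as lower in mutants. These were 1172 and 404 genes, or 1648 and 236 with library size as the only scaling. Of the 16707 genes, 3948 had an unadjusted p under 0.05 in either direction, and DESeq2 called 1563 higher and 697 lower. GJA3, gja4 and both GJA5 IDs had lower means in mutant than in control hearts and did not pass the test, and the sign of gja4 flipped with library size as the only scaling. In bulk hearts, fewer cells of a type and less RNA per cell cannot be told apart. All 7 IDs passed the filter on low counts, gja13.1 and gja12.1 through the mutant hearts alone. The mutant and control libraries did not overlap for 4 of the 7, the 3 called genes and GJA5 ENSDARG00000040065, and for 29.7% of all tested genes.

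**Figure D1:**
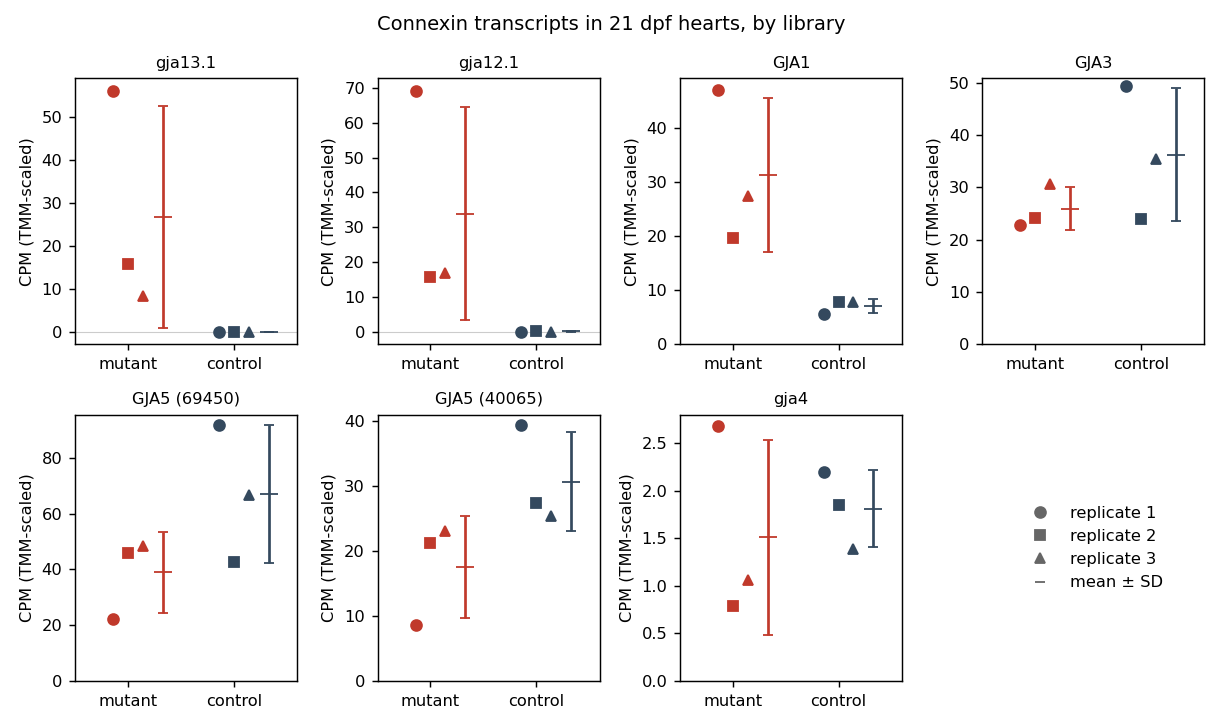
CPM (TMM-scaled) of each listed connexin ID in every heart library, mutants left and controls right, with mean and SD (n = 3 each) beside the points; the digits in brackets end the gene ID. gja13.1 ran from 8.38 to 56.2 CPM in mutants and was at 0 in every control, while GJA3 ran from 22.8 to 30.5 CPM in mutants and from 23.9 to 49.4 CPM in controls.

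The gene gja13.1 (ENSDARG00000041787) was counted in every mutant heart and in no control heart. It had 502, 140 and 87 counts in mutant replicates 1 to 3, or 56.2, 15.8 and 8.38 CPM, and 0 counts in control replicates 1 to 3. The mean was 26.8 ± 25.7 CPM in mutant hearts (SD, n = 3), and 3 counts over all controls, the limit that a count of 0 allows, equal 0.124 CPM. The mutant mean was 216 times that limit, and 97.4 times without mutant replicate 1, the library with the most counts. An exact 95% counting interval for the ratio of pooled counts began at 169, and it covers counting error only. The call had an edgeR adjusted p of 0.00640.

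The gene gja12.1 (ENSDARG00000041797) showed nearly the same split. It had 619, 139 and 176 counts in mutant replicates 1 to 3, or 69.3, 15.6 and 16.95 CPM, against 0, 3 and 0 counts in control replicates 1 to 3. Mutant replicate 1 was again far above the other mutants, and the controls held counts in replicate 2 alone. The pooled ratio of mutant over control was 267, with an exact 95% counting interval of 91.2 to 1298 that covers counting error only. The fitted log2 fold change was 7.94 (SE 1.01, edgeR adjusted p = 0.00200). The pooled ratio was 132 without mutant replicate 1, and the fitted log2 fold change was 6.90. Without control replicate 2 the controls had no count, so the fitted value of 11.23 is no measured size. The pooled ratio was 177 without control replicate 1 and 180 without control replicate 3. The counts of gja13.1 were 0.811, 1.01 and 0.494 times those of gja12.1 in mutant replicates 1 to 3, so their proportion was not constant between libraries.

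GJA1 (ENSDARG00000041799), whose mammalian counterpart encodes the main ventricular connexin, was present in both groups and higher in mutants. It stood at 47.1, 19.6 and 27.4 CPM in mutant replicates 1 to 3, against 5.50, 7.89 and 7.82 CPM in control replicates 1 to 3. The lowest mutant was more abundant than the highest control. Means were 31.3 ± 14.2 CPM in mutant and 7.07 ± 1.36 CPM in control hearts (SD, n = 3 each), and the log2 fold change was 2.15 (SE 0.35, edgeR adjusted p = 0.00640). Without both hearts numbered 1 it was 1.59, with an edgeR adjusted p of 0.00919.

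GJA3 (ENSDARG00000021889), the conduction connexin of the embryonic ventricle, did not pass the test. It stood at 22.8, 24.2 and 30.5 CPM in mutant replicates 1 to 3, against 49.4, 23.9 and 35.4 CPM in control replicates 1 to 3. The groups overlapped, with the highest value in control replicate 1 and control replicate 2 within the mutant range. The log2 fold change was -0.49 with a 95% interval of -1.11 to 0.14 (edgeR adjusted p = 0.332). Without control replicate 1 it was -0.21.

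Both GJA5 IDs, counterparts of the mammalian atrial and conduction connexin gene, had lower means in mutants and did not pass the test. GJA5 ENSDARG00000069450 stood at 22.4, 45.8 and 48.5 CPM in mutant replicates 1 to 3, against 91.9, 42.5 and 66.8 CPM in control replicates 1 to 3. Its log2 fold change was -0.78 (95% interval -1.58 to 0.0073, edgeR adjusted p = 0.216), and its groups overlapped at control replicate 2. GJA5 ENSDARG00000040065 stood at 8.62, 21.2 and 23.0 CPM in mutant replicates 1 to 3, against 39.4, 27.4 and 25.3 CPM in control replicates 1 to 3. Its groups did not overlap, with a log2 fold change of -0.80 (95% interval -1.61 to 0.0091, edgeR adjusted p = 0.217). Both IDs were lowest in mutant replicate 1 and highest in control replicate 1, and without those libraries the log2 fold changes were -0.20 and -0.24. The count of the first ID was 2.60, 2.16 and 2.11 times that of the second in mutant replicates 1 to 3, against 2.33, 1.55 and 2.64 times in control replicates 1 to 3.

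gja4 (ENSDARG00000070357), whose mammalian counterpart is an endothelial connexin gene, was scarce in every library. It had 24, 7 and 11 counts in mutant replicates 1 to 3, against 18, 15 and 11 in control replicates 1 to 3. The groups overlapped, and mutant replicate 1 held the highest count of all hearts. The log2 fold change was -0.27 (95% interval -1.59 to 1.06, edgeR adjusted p = 0.842). At these counts any change within that interval remains possible.

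The called connexins lie in 1 stretch of the genome, with uncalled genes between them. In the RefSeq gene table of the assembly GRCz12tu, used for gene order only, gja1b is followed by gja13.2, gja12.2, tbc1d32, gja12.1, gja13.1 and gja11, so 3 of the listed connexin genes share 1 cluster of 6 connexins. The table gives gja13.1 and gja13.2 as older names of each other, so their places may be exchanged. GJA3, gja4 and the gja5 genes lie elsewhere. The cluster was looked up after the values had been seen.

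Within the cluster, 4 of 5 tested connexins rose, where 7.02% of all tested genes did. All 5 had mutant libraries above every control, as had 16.8% of all tested genes. Of the 5, 3 are listed members picked with these results known, and gja12.1 and gja13.1 passed the filter through mutant hearts alone. Both counts are therefore a description and no evidence about the cluster. gja13.2 (ENSDARG00000076789), which is outside the listed set, stood at 19.0, 11.3 and 22.4 CPM in mutant replicates 1 to 3, against 2.94, 4.56 and 3.03 CPM in control replicates 1 to 3. It rose by a log2 fold change of 2.32 (SE 0.35, edgeR adjusted p = 0.00439), and unlike gja12.1 and gja13.1 it was highest in mutant replicate 3. gja12.2 had 62, 18 and 38 counts in mutant replicates 1 to 3, against 14, 8 and 3 in control replicates 1 to 3, and the log2 fold change of 2.02 (SE 0.66) had an edgeR adjusted p of 0.0998. gja11 had 5, 1 and 0 counts in mutant hearts, against 2, 0 and 0 in control hearts, too few to test.

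The gene between them, tbc1d32 (TBC1D32), is no connexin, and it had a higher mean in mutants without passing edgeR's test. It had 110, 34 and 43 counts in mutant replicates 1 to 3, against 17, 15 and 15 in control replicates 1 to 3 (log2 fold change 1.79, SE 0.53, edgeR adjusted p = 0.0727). DESeq2 called TBC1D32 (adjusted p = 0.0190), and the edgeR log2 fold change was 1.05 without mutant replicate 1 and 1.1006 without both hearts numbered 1. The genes on either side of the cluster were mixed. HSF2 on one side had a log2 fold change of 0.55 (SE 0.36, edgeR adjusted p = 0.40) and HSDL1 on the other -0.31 (SE 0.39, edgeR adjusted p = 0.699), and neither passed the test. MAN1A1, the next gene after HSDL1, rose by 1.16 (SE 0.26, edgeR adjusted p = 0.0263), a call that was lost on leaving out mutant replicate 1 or a single control, with an adjusted p as high as 0.113. The counting's strand setting is not given in the sources used here, so reads of genes that overlap on opposite strands could not be told apart, and reads shared by similar connexin copies may have been dropped.

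**Figure D2:**
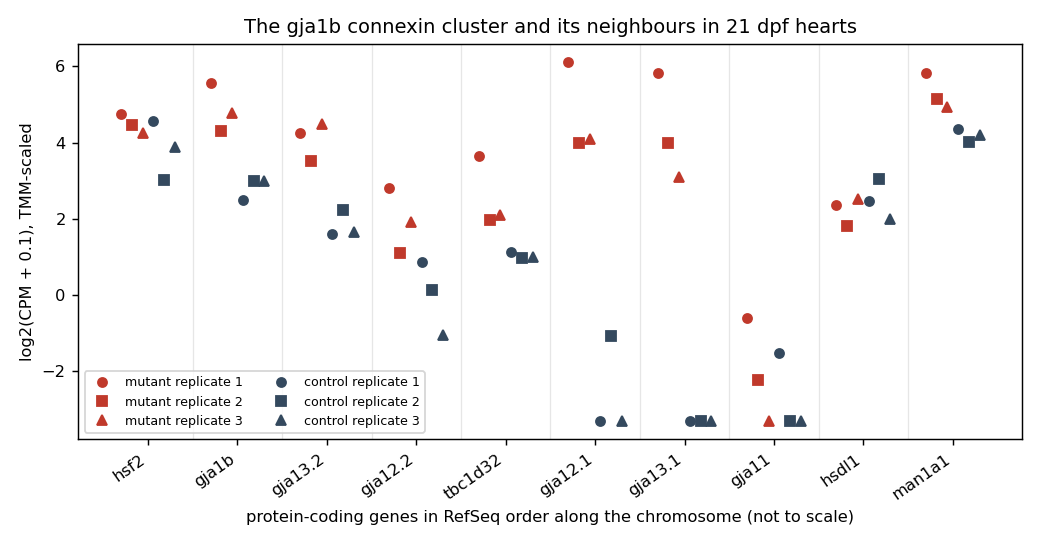
Level of each gene of the connexin cluster and its neighbours, as log2(CPM + 0.1) per heart library, in the RefSeq gene order; 0.1 is the pseudocount that places genes without counts. All mutant points of gja1b (the ID named GJA1), gja13.2, gja12.2, gja12.1 and gja13.1 lie above all control points, while those of HSDL1 mix.

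Among the other gap junction genes, 1 of 7 tested rose (14.3%, against 9.43% called over all tested genes), gja13.2, and none fell by edgeR. At an unadjusted p under 0.05, 4 were higher and 1 lower, and DESeq2 called 2 higher and 1 lower. Over all 16707 tested genes, 3948 had an unadjusted p under 0.05, and DESeq2 called 1563 higher and 697 lower. The gene names give 39 connexin and pannexin IDs in all, 32 of them outside the listed set. Of these 32, 6 had no count in any heart and 19 had too few to test, with at most 26 counts in a library. The most abundant outside gja13.2 were PANX1 (ENSDARG00000025285), a pannexin that forms channels to the cell exterior, and gjc4b. PANX1 had 19.3 ± 1.28 CPM in mutant and 21.9 ± 5.83 CPM in control hearts (SD, n = 3 each; log2 fold change -0.19, SE 0.24, edgeR adjusted p = 0.702). gjc4b had 16.2 ± 5.53 CPM in mutant and 15.01 ± 3.56 CPM in control hearts (SD, n = 3 each; log2 fold change 0.11, SE 0.30, edgeR adjusted p = 0.882). The gene gjd6, named here after its values were seen because it acts in the embryonic zebrafish heart, had 40, 16 and 36 counts in mutant replicates 1 to 3, against 46, 79 and 64 in control replicates 1 to 3. Its groups did not overlap and its log2 fold change was -1.26 (95% interval -2.21 to -0.31, edgeR adjusted p = 0.104).

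**Figure D3:**
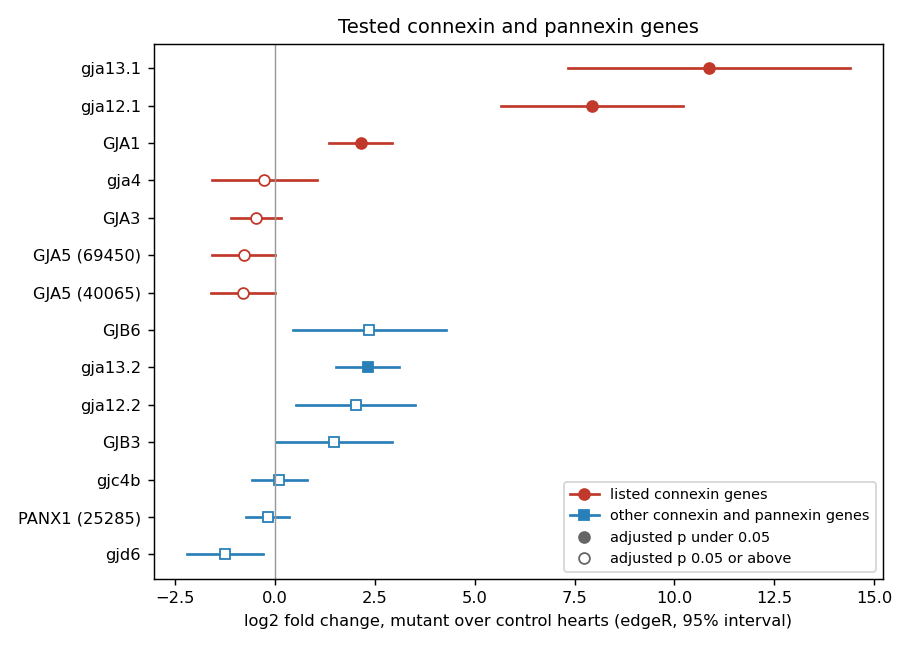
Log2 fold change of mutant over control hearts with its 95% interval for the 14 tested connexin and pannexin IDs, the listed ones as circles and the others as squares; filled symbols have an adjusted p under 0.05. gja13.1, gja12.1, GJA1 and gja13.2 are filled, and the intervals of GJA3, gja4 and both GJA5 IDs include 0.

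Among genes of the protein complexes around gap junctions, calls went in both directions. Of 21 tested genes of adherens junctions, desmosomes, caveolae and scaffolds, 2 rose and 1 fell (14.3%, against 9.43% over all tested genes). Their median log2 fold change was 0.076, against -0.0076 over all tested genes. The caveolin gene of muscle, cav3, fell to 38.1 CPM in mutant hearts, against 77.9 CPM in control hearts (log2 fold change -1.03, SE 0.21, edgeR adjusted p = 0.0163). dbn1, which encodes an actin-binding partner of connexins in mammals, rose to 13.8 CPM in mutant hearts, against 4.05 CPM in control hearts (log2 fold change 1.77, SE 0.39, edgeR adjusted p = 0.0248). The cav3 call was lost without control replicate 2 or 3, with an adjusted p as high as 0.0682. The dbn1 call was lost on leaving out mutant replicate 1 or a single control, with an adjusted p as high as 0.0770. The abundant junction genes CTNNB1, at 790 CPM in mutant and 893 CPM in control hearts, and CDH2, at 520 CPM in mutant and 612 CPM in control hearts, did not pass (log2 fold changes -0.18 and -0.24, both above 0 with library size as the only scaling).

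Among 19 tested cardiac transcription factor genes known to act on connexin genes or chamber identity in vertebrates, 1 rose and 1 fell (10.5%, against 9.43% over all tested genes), and their median log2 fold change was -0.10. nkx2.7, a cardiac homeobox gene, rose to 7.48 CPM in mutant hearts, against 2.47 CPM in control hearts (log2 fold change 1.59, SE 0.35, edgeR adjusted p = 0.0231). IRX5 fell to 35.2 CPM in mutant hearts, against 65.1 CPM in control hearts (log2 fold change -0.89, SE 0.20, edgeR adjusted p = 0.0248). In mice Irx5 shapes the gradient of repolarisation across the ventricular wall. The nkx2.7 call was lost on leaving out mutant replicate 1 or 3 or a single control, with an adjusted p as high as 0.106. The IRX5 call was lost on leaving out mutant replicate 1 or 2 or a single control, with an adjusted p as high as 0.105, and with library size as the only scaling. The abundant factors GATA5 and HAND2 had log2 fold changes of -0.10 and -0.50 and did not pass edgeR's test. That of GATA5 was 0.15 with library size as the only scaling, and DESeq2 called HAND2 lower (adjusted p = 0.0225).

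Markers of other tissues differed between the genotypes alongside the connexins. Over all tested genes edgeR called 7.02% higher and 2.42% lower in mutants. All 12 tested hepatocyte markers rose, none of the 13 was at 0 in either group, and their summed level was 2731 to 5162 CPM in mutant hearts and 133 to 150.3 CPM in control hearts. Like gja13.1, gja12.1 and GJA1, this sum was highest in mutant replicate 1, and so were the smooth muscle and pigment cell sums given below. For every 1000 CPM of hepatocyte markers, gja13.1 had 10.9, 4.38 and 3.07 CPM in the mutants by replicate number. Every control was at 0 by this measure. For gja12.1 the mutants gave 13.4, 4.35 and 6.21 CPM, and the controls 0, 2.79 and 0 CPM. Of 8 tested markers of intestinal epithelium 6 rose, some of which the liver also expresses, and these 6 did not overlap between genotypes. VIL1 and ANPEP ENSDARG00000036809 were not called. VIL1 had 18, 140 and 14 counts in mutant replicates 1 to 3, against 5, 17 and 13 in control replicates 1 to 3. ANPEP had 9, 122 and 11, against 19, 2 and 7. CDH17, untested, was likewise highest in mutant replicate 2. All 17 IDs summed to 68.5 to 271 CPM in mutant and 9.66 to 11.2 CPM in control hearts, with cdx4 at 0 in all. Of 8 kidney tubule markers 3 rose and 1 fell, with 304 to 475 CPM in mutant and 252 to 281 CPM in control hearts, and SLC12A1, SLC12A3 and TRPM6 were at 0 in all. The part of these tissues in the connexin results was not tested.

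Heart muscle and vessel markers lay on the lower side in mutants, as GJA3 and the GJA5 IDs did. edgeR called none of 13 tested cardiomyocyte markers (median log2 fold change -0.62) and none of 9 endothelial markers (median -0.40). These medians depend on the TMM scaling. With library size as the only scaling, log2 fold changes of all tested genes moved up by a median of 0.26. DESeq2 called 3 cardiomyocyte markers lower, MYL7 (adjusted p = 0.0158) among them, and 2 endothelial markers lower, where it called 697 of 16707 genes lower. At an unadjusted p under 0.05 edgeR had 1 cardiomyocyte and 3 endothelial markers lower, and 3948 of all tested genes in either direction. Cardiomyocyte markers summed to 29286 to 49746 CPM in mutant and 59946 to 76132 CPM in control hearts, and were lowest in mutant replicate 1. Endothelial markers summed to 1165 to 1536 CPM in mutant and 1590 to 2020 CPM in control hearts. Per 1000 CPM of cardiomyocyte markers, GJA5 ENSDARG00000069450 stood at 0.764, 0.975 and 0.976 CPM in mutant replicates 1 to 3, against 1.21, 0.630 and 1.12 CPM in control replicates 1 to 3, and these groups overlapped. GJA3 stood at 0.779, 0.515 and 0.614 CPM in mutant replicates 1 to 3, against 0.649, 0.354 and 0.591 CPM in control replicates 1 to 3, and overlapped as well. By the same measure GJA1 stood at 1.61, 0.417 and 0.550 CPM in mutant replicates 1 to 3, against 0.0723, 0.117 and 0.130 CPM in control replicates 1 to 3, with no overlap. Per 1000 CPM of hepatocyte markers GJA1 was lower in mutants, also with no overlap. It stood at 9.13, 5.45 and 10.02 CPM in mutant replicates 1 to 3, against 36.6, 59.4 and 57.8 CPM in control replicates 1 to 3. Per 1000 CPM of intestinal epithelium markers it was 205, 72.2 and 399 CPM, against 570, 762 and 697 CPM. Macrophage markers also rose, with 785 to 1192 CPM in mutant and 196 to 310.1 CPM in control hearts, and no ratio of GJA1 to them was taken. The part of any of these tissues or cells in the GJA1 result was not tested.

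**Figure D4:**
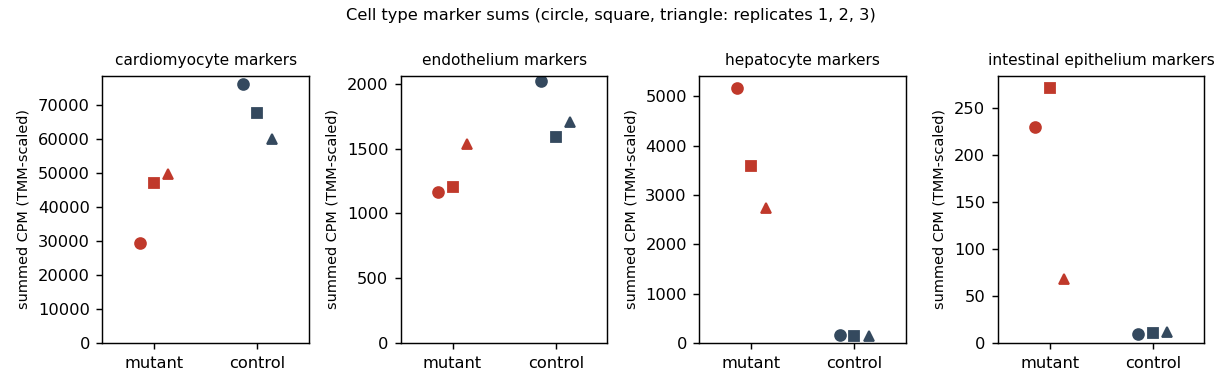
Summed CPM of 4 marker lists in each heart library, mutants left and controls right. Hepatocyte markers ran from 2731 to 5162 CPM in mutants and from 133 to 150.3 CPM in controls, and cardiomyocyte markers from 29286 to 49746 CPM in mutants and from 59946 to 76132 CPM in controls.

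The remaining marker lists were checked for cells in which connexins are known to act. For comparison, edgeR called 9.43% of all tested genes, 7.02% as higher and 2.42% as lower. Where a listed name matched several IDs, all were counted as markers, here and in the lists above. Of 10 smooth muscle IDs, matched from 7 names, 2 rose and 1 fell, with 762 to 1712 CPM in mutant and 635 to 1233 CPM in control hearts. A riser and the faller were the CNN1 IDs, matched from the same name. Their log2 fold changes were 8.77 (ENSDARG00000017193, 1 count over all controls) and -1.94 (ENSDARG00000102398). Of 8 pigment cell markers 2 rose, with 20.4 to 40.8 CPM in mutant and 12.23 to 20.7 CPM in control hearts. No lens marker passed the filter on low counts. Their sum was 0.289 to 1.23 CPM in mutant hearts, against 0.979, 0.370 and 41.7 CPM in control replicates 1 to 3, so control replicate 3 stood apart from every other heart. Without it the log2 fold change of GJA3 was -0.51. Of 12 macrophage markers 11 rose, with 785 to 1192 CPM in mutant and 196 to 310.1 CPM in control hearts, and all 9 red cell markers fell, with 314 to 438 CPM in mutant and 16163 to 28857 CPM in control hearts. Of 10 keratinocyte markers 1 rose, and none of 11 exocrine pancreas and 7 neuron markers was called by edgeR or DESeq2 or had an unadjusted p under 0.05. The sums of these last lists overlapped between genotypes, at 2816 to 3753, 62.1 to 778 and 72.5 to 98.8 CPM in mutant hearts, against 2020 to 4513, 17.9 to 545 and 73.8 to 98.6 CPM in control hearts.

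Genes that ran most like each connexin over the 6 hearts were found by the root mean square difference of log2 CPM. Each gene was centred on its own mean. Only genes with a symbol that is not provisional were named as closest, while ranks and counts cover all tested genes. The 6 points fall into the 2 genotypes, so a short distance mainly says that a gene differed between genotypes by a like amount on this scale. The scale adds a prior count of 2, which limits the difference of a gene with no count in controls. The log2 fold changes fitted by edgeR were 10.87 for gja13.1, 6.29 for fga and 7.98 for HAL. With no count of gja13.1 in controls, its fitted value is no measured size. The counts give only a bound, a mutant mean 216 times the limit of 3 counts over all controls. Closest to gja13.1 were fga, which encodes a fibrinogen chain made in the liver, at a difference of 0.36, and HAL, the histidine ammonia-lyase gene, also at 0.36. Of all tested genes 99 lay within 1 log2 unit of gja13.1. Closest to gja12.1 were FGB, another fibrinogen chain gene, at 0.42, and the matrix proteoglycan gene BGN at 0.44, and gja13.1 itself came at rank 11 with 0.55. Closest to GJA1 were MAMDC2 at 0.11 and RBM47, which encodes an RNA-binding protein, at 0.12. Within 1 log2 unit lay 73 tested genes for gja12.1 and 4498 for GJA1.

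The connexins that were not called ran like other genes. Closest to GJA3 were JARID2 and pdzd2 at 0.073 and 0.081. Closest to GJA5 ENSDARG00000069450 were sh3bgr and RALB at 0.13 and 0.14, and closest to GJA5 ENSDARG00000040065 were nnt2 and ABCB10 at 0.12 and 0.13. The 2 GJA5 IDs differed from each other by 0.25, at ranks 85 and 62. Closest to gja4 were BACH1 and trim35-39 at 0.13 and 0.14. No less than 12679 tested genes lay within 1 log2 unit of each of these 4 IDs.

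**Figure D5:**
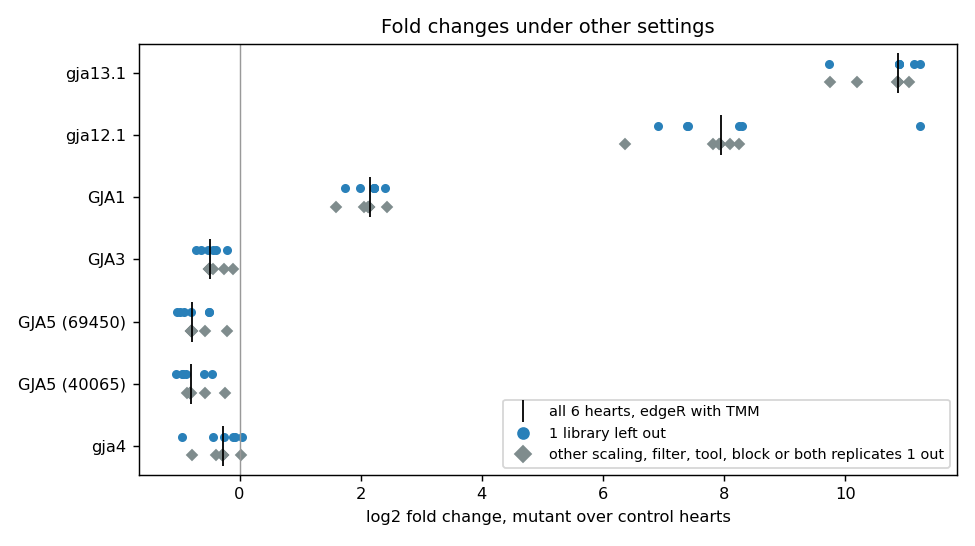
Log2 fold change of mutant over control hearts for each listed connexin ID with all 6 hearts (bar), with 1 library left out (circles) and under other scalings, filters, DESeq2, a replicate block or without both hearts numbered 1 (diamonds). GJA1 ran from 1.59 to 2.43 and gja12.1 from 6.36 to 11.23, and gja4 lay on both sides of 0. The 11.23, and all values of gja13.1, come from fits with no count in controls and are no measured size.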

How the data were processed

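The files the authors deposited, 1 for each library, hold unnormalized counts of reads in genes. The submitters' processing notes name HTSeq 0.6.1p1, Bowtie2 2.2.3, TopHat2 2.2.1, FastQC 0.11.5 and bcl2fastq, and the build GRCz10. Annotation release and strand setting were not given in the sources used here. The counter's lines for unassigned reads were left out. Symbols came from a gene table that named 26121 of 31953 IDs. Mutant and control hearts, 3 each, were fitted in R 4.3.3 by edgeR 4.0.16 (filterByExpr with a minimum count of 10, TMM, quasi-likelihood F test with genotype only), with Benjamini-Hochberg adjustment over 16707 genes, and SE taken as the log2 fold change over the root of F. Steps were tested on simulated counts. DESeq2 1.42.0 was an alternative.

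The members, lists and rules were chosen with earlier results of these data known. Named were all listed connexins, and other connexins and pannexins that were called, with the 3 most abundant. Up to 4 called genes per list were named, with the 2 most abundant where fewer were called. So were the 2 genes most like each listed connexin (prior count of 2), among those with a symbol that is not provisional. The rule's 2 most abundant genes per marker list are not reported here; sums are given. Exact intervals and floors of 3 counts cover counting error only. Of the called genes that the rule names, 1 is not reported here. No sequences were used here.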

Additional observations from a re-analysis of the deposited data

How the results depend on the processing

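The calls of gja13.1, gja12.1 and GJA1, and of gja13.2, held under all 13 alternatives, with edgeR adjusted p up to 0.0283, 0.0192, 0.0391 and 0.0352, and none of the other 4 listed connexins was called under any. Over all genes 1576 were called, 1172 higher and 404 lower, against 1648 higher and 236 lower with library size alone, which moved the median by 0.26 on the log2 scale. Leaving out 1 library gave 604 (control replicate 3) to 1302 calls, with 1034 without control replicate 2. The labels do not say whether replicate numbers pair the hearts. Correlations of deviations were 0.096, 0.22 and -0.083 for numbers 1 to 3, and -0.26 to 0.14 between unlike numbers. With 3 hearts per genotype these values cannot decide it. With a replicate block 1476 genes were called. Over all tested genes DESeq2 called 2260, where edgeR called 1576. DESeq2 called 3 of the other gap junction genes, gja13.2, gja12.2 and gjd6, where edgeR called 1. Junction partner calls numbered 3, against 1 without both hearts numbered 1 and 0 to 3 with 1 library left out. Regulator calls numbered 2, against 3 with DESeq2, 1 with library size alone, 0 without both hearts numbered 1 and 0 to 2 with 1 library left out. The causes were not tested.

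Values near 0 changed sign: gja4 to 0.023 with library size alone and 0.043 without mutant replicate 2, gjc4b to -0.36 without both hearts numbered 1, -0.19 without mutant replicate 1 and -0.080 without control replicate 1, PANX1 to 0.081 with library size alone and 0.035 without control replicate 2, and CTNNB1, CDH2 and GATA5 to 0.075, 0.018 and 0.15 with library size alone. With 1 library left out, gja4 ran from -0.94 to 0.043, gjc4b from -0.19 to 0.29 and PANX1 from -0.35 to 0.035.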
